A study of Mus musculus with 10 samples.

Results

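The 39 Hox genes of the mouse, the homeobox genes that sit in the Hoxa, Hoxb, Hoxc and Hoxd clusters, were described in colon tissue of 10 UC mice. They were chosen by symbol, as Hox followed by one letter from a to d and then digits only, so that antisense transcripts of the clusters were not members. The table of expression values lists 56691 genes, and 11 members belong to cluster A, 10 to cluster B, 9 to cluster C and 9 to cluster D. Of the 16545 genes with enough counts to be tested between the groups, 24 were members. No label gives the region of the colon from which RNA was taken, so Hox levels are given mouse by mouse and not by position along the colon.

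Hox genes encode homeodomain transcription factors that give cells of the embryo their position along the head-to-tail axis. Within a cluster, the genes of low paralog number lie at the 3′ end and act toward the head, and those of high paralog number lie at the 5′ end and act toward the tail, an order known as collinearity. In the gut, 5′ members such as Hoxa13 and Hoxd13 pattern the hindgut, and differences in Hox level between regions of the intestine persist in the adult.

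The study asked how gene expression in the colon of mice with colitis differs after treatment with chick early amniotic fluid (ceAF), the fluid around the young chick embryo. All mice were male C57/BL6 mice aged 8 weeks that drank 3% dextran sulfate sodium (DSS), a chemical that injures the colonic epithelium, for 7 days. The 5 mice of the DSS group were given nothing further that the sources used here name, and the 5 mice of the ceAF group were then gavaged with 15 mL/kg ceAF for 10 days. Whether the DSS group was gavaged with a vehicle, and on which day each group was killed, is not given in the sources used here. Untreated colon and colon after mesalazine were not analysed here, so each Hox difference is one between ceAF after DSS and DSS alone. Libraries held between 16275884 and 19901549 counts in the DSS group and between 14676471 and 18811795 counts in the ceAF group. Their medians were 16426125 and 16058782 counts. In the study each group held 8 mice, of which 5 were sequenced. Unless given as FPKM, the level of 1 Hox gene across mice is in CPM, counts scaled to library sizes with TMM correction for composition. Hox genes are compared with each other only as FPKM, which corrects for exon length and library total but carries no TMM correction.

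The label colon was checked against marker genes before the Hox genes were described. Cdx1, Cdx2 and the other genes of the list for colon epithelium were detected in every mouse, with a summed level of 13227, 16442, 19386, 18623 and 9667 CPM in DSS-1 to DSS-5 and 21095, 12041, 15215, 15014 and 9662 CPM in ceAF-1 to ceAF-5, and Muc2, the secreted mucin of goblet cells, had the highest mean CPM although Car1 exceeded it in DSS-3 and ceAF-1. Markers of stomach summed to 0.825 CPM or less and markers of kidney to 0.540 CPM or less in every mouse, with 0 counts for Gkn2, Umod and Aqp2. Within each marker list genes are ranked by counts, without correction for length. The libraries ceAF-1 and ceAF-4 stood apart from the other 8 in their Hox levels, as the values below show, so the main levels and the test of Hoxd13 are also given without both. That comparison was chosen after their values were seen, so values without both mice are no separate measure of a difference between the groups. In whole tissue, fewer cells that express a Hox gene and less Hox RNA per cell cannot be told apart.

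Clusters A and B held most of the Hox RNA in every mouse. The summed level of the 39 genes was 190.2, 212, 201, 224 and 220.2 FPKM in DSS-1 to DSS-5 and 177, 292, 268, 222 and 249 FPKM in ceAF-1 to ceAF-5, a mean of 209.7 FPKM ± 13.98 (SD, n = 5) in the DSS group and 242 FPKM ± 44.3 (SD, n = 5) in the ceAF group, with overlapping groups. Without ceAF-1 and ceAF-4 the mean of the ceAF group was 269.8 FPKM ± 21.6 (SD, n = 3). Both mice were set aside for their Hox levels and had the lowest sums of the ceAF group, so this mean is no separate measure of a difference between the groups. Cluster A made up 63.1, 42.8, 34.0, 48.5 and 40.4% in DSS-1 to DSS-5 and 9.61, 35.2, 36.0, 84.3 and 48.0% in ceAF-1 to ceAF-5 of that sum. Cluster B made up 34.6, 52.8, 60.3, 49.6 and 56.9% in DSS-1 to DSS-5 and 82.6, 45.5, 45.0, 15.1 and 50.2% in ceAF-1 to ceAF-5. The share of cluster A was lowest and that of cluster B highest in ceAF-1, and the reverse held in ceAF-4, while the other 8 mice lay between them for both clusters. Cluster D made up 2.12, 4.28, 5.11, 1.69 and 2.65% in DSS-1 to DSS-5 and 7.30, 19.3, 19.0, 0.555 and 1.72% in ceAF-1 to ceAF-5, with its highest shares in ceAF-2 and ceAF-3. Cluster C never exceeded 0.636% of the summed FPKM. The groups overlapped in the share of every cluster. Without ceAF-1 and ceAF-4, cluster A made up 39.7% ± 7.21 (SD, n = 3) of Hox FPKM in the ceAF group, against 45.8% ± 11.02 (SD, n = 5) in the DSS group. Cluster B then made up 46.9% ± 2.88 (SD, n = 3) and cluster D 13.4% ± 10.1 (SD, n = 3) in the ceAF group.

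**Figure D1:**
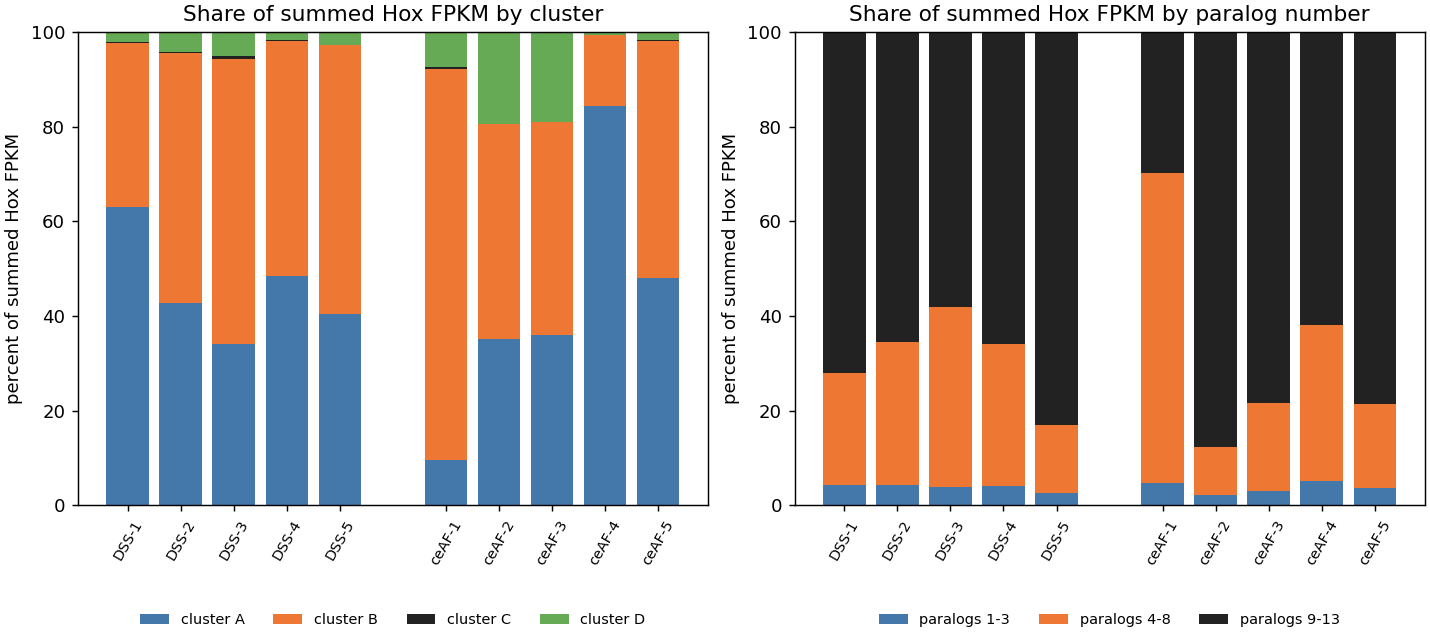
Share of the summed Hox FPKM of each mouse by cluster and by paralog number; each bar is 1 mouse, with the 5 mice of the DSS group at the left and the 5 of the ceAF group at the right of each panel. Cluster A made up 9.61% of the sum in ceAF-1 and 84.3% in ceAF-4, and paralogs 9 to 13 made up the smallest share, 29.7%, in ceAF-1.

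By paralog number, the genes of the 5′ side carried most of the Hox RNA in 9 of the 10 mice. Paralogs 9 to 13 made up 72.0, 65.6, 58.2, 65.9 and 83.0% in DSS-1 to DSS-5 and 29.7, 87.8, 78.5, 61.9 and 78.6% in ceAF-1 to ceAF-5 of the summed Hox FPKM. Paralogs 4 to 8 made up 23.8, 30.1, 38.0, 30.1 and 14.4% in DSS-1 to DSS-5 and 65.6, 10, 18.5, 33.0 and 17.8% in ceAF-1 to ceAF-5. In ceAF-1 the central paralogs 4 to 8 thus outweighed paralogs 9 to 13, and paralogs 1 to 3 stayed between 2.19% and 5.02% in every mouse. The mean paralog number weighted by FPKM was 9.73, 9.40, 9.04, 9.43 and 10.9 in DSS-1 to DSS-5 and 6.93, 11.2, 10.5, 8.74 and 10.4 in ceAF-1 to ceAF-5. It was lowest in ceAF-1 and highest in ceAF-2, and it averaged 9.70 ± 0.712 (SD, n = 5) in the DSS group and 9.54 ± 1.71 (SD, n = 5) in the ceAF group, with overlapping groups. Without ceAF-1 and ceAF-4 the mean of the ceAF group was 10.7 ± 0.447 (SD, n = 3), and the share of paralogs 9 to 13 was 81.6% ± 5.35 (SD, n = 3).

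**Figure D2:**
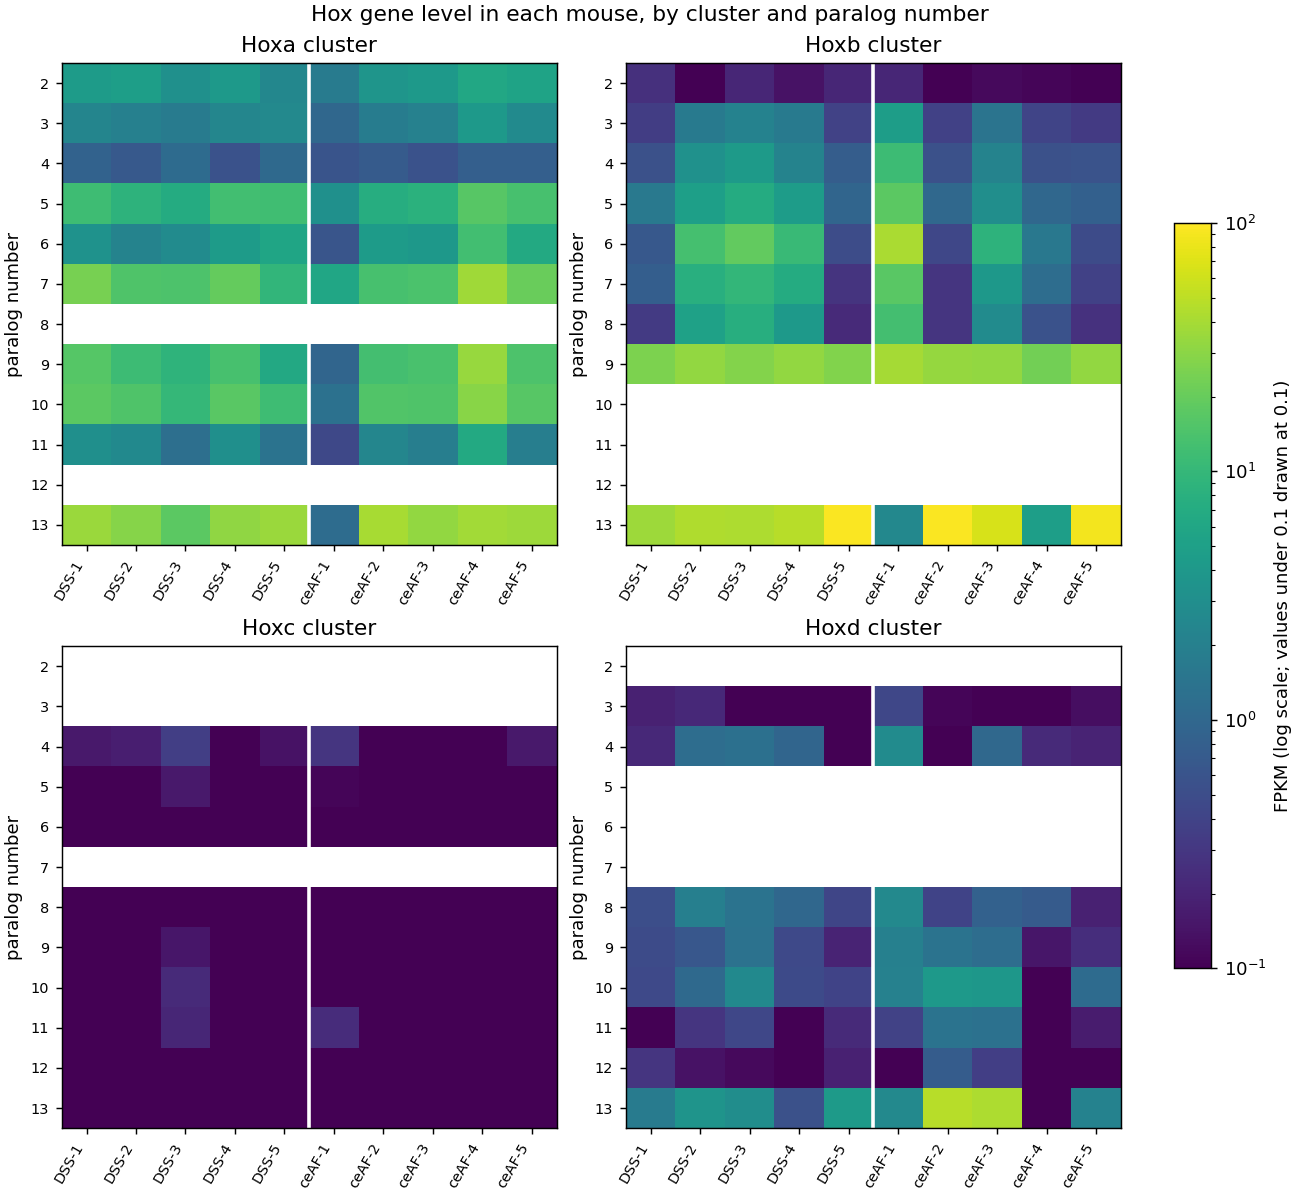
FPKM of the Hox genes of paralog numbers 2 to 13 in each mouse, with 1 panel per cluster, paralog number down the side, mice across and color on a log scale; white rows are paralog numbers that the cluster lacks, and a white line parts the DSS group from the ceAF group. Cluster C is dark throughout, with no value above 0.360 FPKM, while Hoxa13, Hoxb9 and Hoxb13 are bright in most mice and Hoxb3 to Hoxb8 are bright in DSS-2, DSS-3, DSS-4, ceAF-1 and ceAF-3.

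Cluster A lies on chromosome 6 on the minus strand, between positions 52132570 and 52237788 of the table, whose genome build is not named. Its highest member by mean FPKM was Hoxa13, the gene at its 5′ end and a regulator of hindgut, limb and genital tract development, at 29.7 ± 7.40 FPKM (SD, n = 5) in the DSS group and 29.8 ± 16.3 FPKM (SD, n = 5) in the ceAF group. Without ceAF-1 and ceAF-4 its mean in the ceAF group was 36.5 FPKM ± 3.81 (SD, n = 3). Hoxa13 was at 81.7, 67.4, 41.4, 79.7 and 84.8 CPM in DSS-1 to DSS-5 and 3.13, 97.7, 80.6, 88.4 and 82.9 CPM in ceAF-1 to ceAF-5. It was low only in ceAF-1, where its level was below that of the other 9 mice by at least 13-fold. Next in order of mean FPKM over the 10 mice came Hoxa7 at 17.4, Hoxa10 at 14.9, Hoxa9 at 13.3 and Hoxa5 at 10.1 FPKM, and neighbours in this order differed by less than the SD between mice of either gene. Hoxa5, known for the patterning of lung and gut, ranged from 3.23 to 16.5 FPKM, and Hoxa7 from 5.90 to 37.6 FPKM. Hoxa6 at 4.66, Hoxa2 at 4.03, Hoxa11 at 2.48 and Hoxa3 at 2.27 FPKM were lower, and Hoxa4 at 0.785 FPKM was lower still.

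The same 2 mice bounded most of cluster A. Hoxa9, a regulator of blood stem cells and of the posterior body axis that was singled out after its values were seen, was at 87.5, 63.8, 48.3, 78.5 and 35.6 CPM in DSS-1 to DSS-5 and 5.88, 71.9, 79.4, 185 and 76.0 CPM in ceAF-1 to ceAF-5. Hoxa10, a gene best known in the uterus and the lumbar skeleton and singled out in the same way, was at 56.0, 48.2, 31.6, 58.8 and 37.7 CPM in DSS-1 to DSS-5 and 4.81, 51.4, 50.0, 92.3 and 51.4 CPM in ceAF-1 to ceAF-5. Both were lowest in ceAF-1 and highest in ceAF-4, and the other 8 mice lay between 31.6 and 87.5 CPM for either gene. Of the 10 tested members of cluster A, 9 were lowest in ceAF-1 (90%), the exception being Hoxa4, and ceAF-1 was the lowest mouse for 3476 of all 16545 genes tested (21.0%). For 8 of the 10 members (80%) ceAF-4 was the highest mouse, as it was for 1671 of all genes tested (10.1%). These 2 counts too were chosen after the Hox values were seen. Hoxa13 did not share the high level in ceAF-4, where it stood at 88.4 CPM. Fibroblast and endothelial markers were also lowest in ceAF-1, and the endothelial sum was highest in ceAF-4, with values given further on. That sum was nearly as high in DSS-1, at 96.0 CPM against 97.3 CPM in ceAF-4. The fibroblast sum was highest in DSS-1, at 1072 CPM against 810 CPM in ceAF-4. The part of these markers in the Hoxa levels was not tested.

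Cluster B, on the plus strand of chromosome 11 between positions 96085142 and 96259082, held the members that differed most between mice of the same group beside Hoxd13. Its central genes Hoxb3 to Hoxb8, which pattern the hindbrain and trunk and act in blood cells, were each higher in the same 5 mice than in any of the other 5. Hoxb6 was at 1.27, 25.3, 36.6, 22.4 and 0.960 CPM in DSS-1 to DSS-5 and 91.0, 0.846, 17.4, 2.98 and 0.880 CPM in ceAF-1 to ceAF-5. Hoxb7 was at 1.16, 11.9, 14.5, 11.3 and 0.420 CPM in DSS-1 to DSS-5 and 29.2, 0.456, 6.31, 1.73 and 0.550 CPM in ceAF-1 to ceAF-5. Hoxb8, a gene known from myeloid cells, was at 0.811, 13.6, 19.8, 11.3 and 0.600 CPM in DSS-1 to DSS-5 and 37.9, 0.781, 7.62, 1.43 and 0.660 CPM in ceAF-1 to ceAF-5. All 3 were highest in ceAF-1, then high in DSS-2, DSS-3, DSS-4 and ceAF-3, and low in DSS-1, DSS-5, ceAF-2, ceAF-4 and ceAF-5, so that each group held both high and low mice.

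The gap between these sets of mice was wide. The lowest Hoxb6 level among the 5 high mice was 17.4 CPM and the highest among the other 5 was 2.98 CPM, a ratio of 5.85. For Hoxb8 the ratio was 5.32, for Hoxb3 3.71, for Hoxb7 3.65, for Hoxb4 3.06 and for Hoxb5 2.02. From the lowest to the highest mouse, Hoxb6 differed 108-fold, Hoxb7 69.6-fold and Hoxb8 63.2-fold. Hoxb4, a regulator of blood stem cells, ranged from 1.37 to 33.0 CPM, Hoxb5 from 2.199 to 54.7 CPM and Hoxb3 from 1.26 to 22.6 CPM, each highest in ceAF-1. Counted over all members, 8 of the 24 tested Hox genes (33.3%) had the same 5 highest mice as Hoxb6, namely Hoxb3 to Hoxb8, Hoxd4 and Hoxd8, with Hoxb6 itself among them. The same 5 mice were the highest for 318 of all 16545 genes tested (1.92%). This count was chosen after the Hox values were seen.

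Hoxb9 and Hoxb13, which lie on the 5′ side of these genes, behaved differently from them and from each other. Hoxb9, a regulator of the thoracic skeleton singled out after its values were seen, was at 62.8, 83.8, 70.2, 88.6 and 68.7 CPM in DSS-1 to DSS-5 and 112, 87.8, 87.5, 57.0 and 79.9 CPM in ceAF-1 to ceAF-5. Its highest level was 1.97 times its lowest, and it was the only member of cluster B besides Hoxb3 to Hoxb8 that was highest in ceAF-1. Hoxb13, the last gene of the cluster, known for prostate and tail development, was at 76.3, 95.2, 93.0, 112 and 206 CPM in DSS-1 to DSS-5 and 6.18, 215, 149, 10.2 and 185 CPM in ceAF-1 to ceAF-5. It was low in ceAF-1 and ceAF-4, at 7.48-fold or more below each of the other 8 mice, which lay between 76.3 and 215 CPM. By mean FPKM, Hoxb13 was the most abundant of the 39 members, at 53.1 ± 23.8 FPKM (SD, n = 5) in the DSS group and 51.6 ± 45.2 FPKM (SD, n = 5) in the ceAF group. Without ceAF-1 and ceAF-4 the mean of Hoxb13 in the ceAF group was 83.5 FPKM ± 16.0 (SD, n = 3). Hoxb9 followed in cluster B at 29.2 ± 3.39 FPKM (SD, n = 5) in the DSS group and 32.3 ± 5.73 FPKM (SD, n = 5) in the ceAF group. Over the 10 mice the means of these 2 genes differed by less than the SD of Hoxb13. Mean FPKM over the 10 mice was 9.66 for Hoxb6, 4.82 for Hoxb7, 4.24 for Hoxb5, 3.43 for Hoxb8, 2.65 for Hoxb4, 1.35 for Hoxb3 and 0.149 for Hoxb2. Hoxb1, a hindbrain gene, had 0 counts in every mouse, which allows up to 0.229 CPM in the shallowest library.

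**Figure D3:**
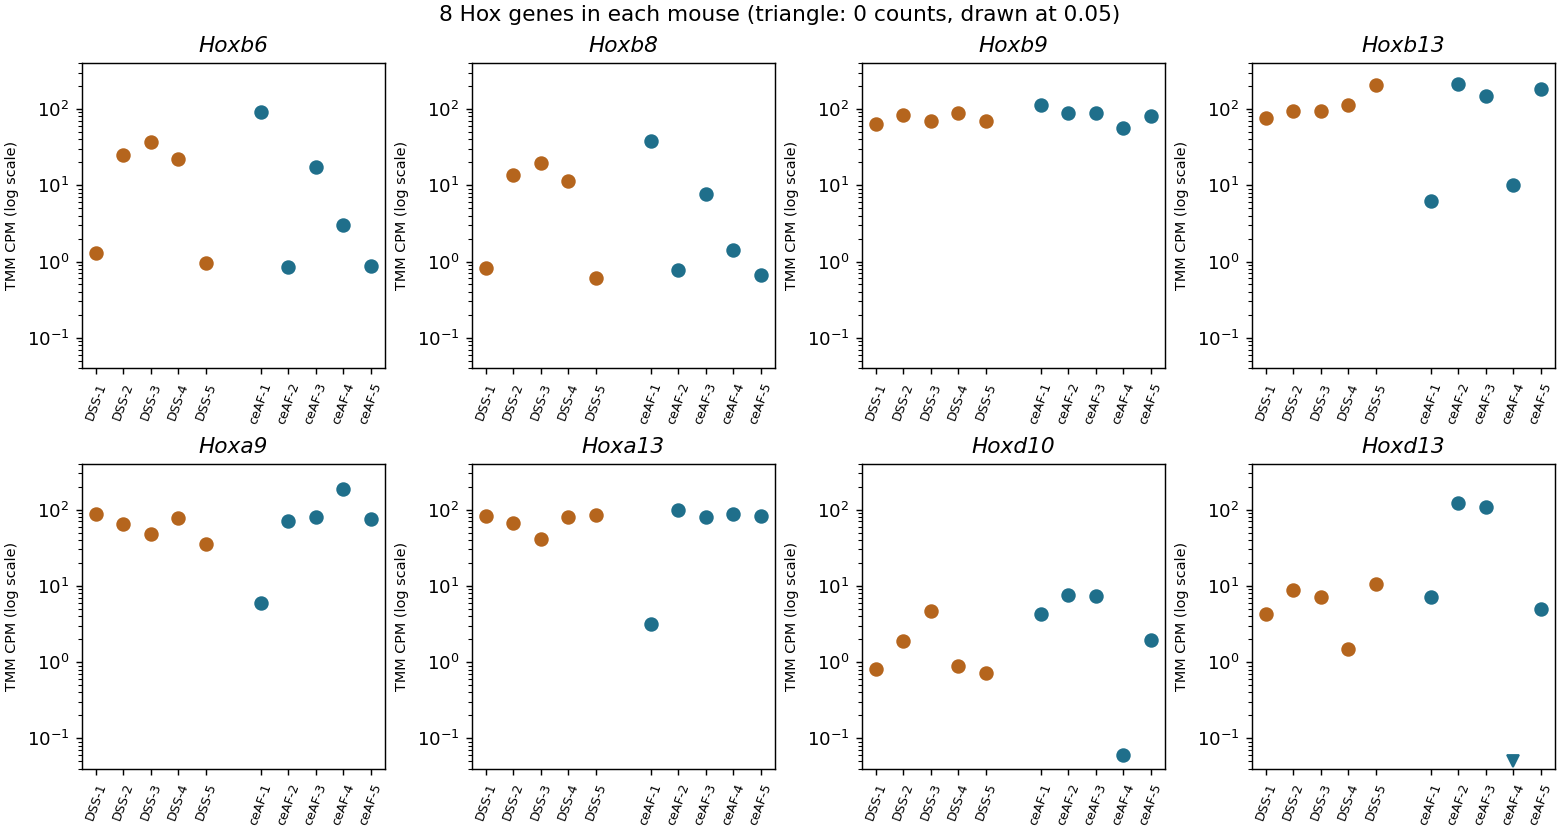
Level of 8 Hox genes in each mouse as TMM-normalized CPM on a log axis, with the DSS group in brown and the ceAF group in blue; a triangle marks 0 counts. Hoxb6 and Hoxb8 split each group into high and low mice, Hoxb9 stays between 57.0 and 112 CPM, Hoxb13 is low in ceAF-1 and ceAF-4, and Hoxd13 is above 100 CPM only in ceAF-2 and ceAF-3.

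Cluster C, on chromosome 15 between positions 102829538 and 102945278, was close to undetected. All 9 genes together had 144 counts over the 10 mice, or 0.145% of the counts on Hox genes, with 4 to 50 counts per mouse. Hoxc4, a gene of the neck and trunk and the highest of the cluster by mean FPKM, was at 0.160, 0.180, 0.360, 0.0900 and 0.140 FPKM in DSS-1 to DSS-5 and 0.290, 0.0800, 0.1, 0.05 and 0.160 FPKM in ceAF-1 to ceAF-5. In counts, Hoxc4 had between 2 and 15 per mouse, and it was the only member of the cluster with a count in every mouse. Hoxc12 and Hoxc13 had 0 counts in every mouse. Hoxc5, Hoxc6, Hoxc8, Hoxc9, Hoxc10 and Hoxc11 had at most 8 counts in any mouse, and DSS-3 and ceAF-1 held 82 of the 144 counts of the cluster. None of the 9 passed the filter for testing, so none of them was compared between the groups.

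Cluster D, on chromosome 2 between positions 74498654 and 74595486, varied between mice at its 5′ end and, as given further on, nearer its 3′ end. Hoxd13, which patterns digits and the muscle of the lower hindgut and was the highest of the cluster by mean FPKM, was at 4.23, 8.74, 7.12, 1.47 and 10.5 CPM in DSS-1 to DSS-5 and 7.25, 121, 109, 0 and 4.95 CPM in ceAF-1 to ceAF-5. It exceeded 100 CPM in ceAF-2 and ceAF-3, was between 1.47 and 10.5 CPM in 7 mice, and had 0 counts in ceAF-4, which allows up to 0.179 CPM there. Hoxd10, a gene of limb and motor neuron patterning, was at 0.811, 1.899, 4.67, 0.897 and 0.720 CPM in DSS-1 to DSS-5 and 4.27, 7.61, 7.29, 0.0597 and 1.92 CPM in ceAF-1 to ceAF-5. Hoxd11, a gene of the forelimb, was at 0.348, 1.20, 1.80, 0.384 and 0.960 CPM in DSS-1 to DSS-5 and 1.83, 5.99, 5.65, 0 and 0.660 CPM in ceAF-1 to ceAF-5. Both were highest in ceAF-2 and ceAF-3 as well, and lowest in ceAF-4, where Hoxd10 had 1 count and Hoxd11 had 0. Of the 6 tested members of cluster D, 3 (50.0%) had ceAF-2 and ceAF-3 as their 2 highest mice, a pattern of 484 of all genes tested (2.93%) that was counted after it had been seen in these 3 genes. Hoxd12, which did not pass the filter, had 12, 7, 5, 4 and 8 counts in DSS-1 to DSS-5 and 0, 29, 17, 0 and 4 counts in ceAF-1 to ceAF-5.

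Hoxd4 and Hoxd8, nearer the 3′ end of cluster D, were highest in the same 5 mice as the central Hoxb genes. Hoxd4, a gene of the hindbrain and upper spine, was at 0.637, 3.45, 3.71, 2.95 and 0.3001 CPM in DSS-1 to DSS-5 and 9.31, 0.0651, 3.13, 0.656 and 0.550 CPM in ceAF-1 to ceAF-5. Hoxd8 ranged from 0.495 to 7.94 CPM, with a ratio of only 1.26 between its lowest high mouse and its highest low mouse. Hoxd9 ranged from 0.298 to 4.81 CPM and was highest in ceAF-1. Per length the cluster was low apart from Hoxd13, with mean FPKM over the 10 mice of 10.8 for Hoxd13, 1.63 for Hoxd10, 1.00 for Hoxd8, 0.811 for Hoxd9, 0.804 for Hoxd4, 0.440 for Hoxd11, 0.203 for Hoxd12, 0.146 for Hoxd3 and 0.0130 for Hoxd1. The span of Hoxd4 overlaps that of Hoxd3 in the table, so how reads were split between them is uncertain. Hoxd3 had at most 27 counts and Hoxd1 at most 2 counts in any mouse.

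The 3 tested members of paralog number 13 shared their highest mouse, ceAF-2, but not their lowest. In ceAF-1, Hoxa13 at 3.13 CPM and Hoxb13 at 6.18 CPM were both at their lowest, while Hoxd13 at 7.25 CPM was close to its median of 7.19 CPM. In ceAF-4, Hoxa13 was at 88.4 CPM, Hoxb13 at 10.2 CPM and Hoxd13 at 0 CPM. In DSS-5 all 3 genes were at their highest in the DSS group. Of the tested members of paralog number 9, Hoxa9 spanned 31.4-fold, Hoxd9 16.1-fold and Hoxb9 1.97-fold over the mice.

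Most Hox genes varied more between mice of a group than other genes did. The SD of log2 CPM within groups had a median of 1.45 over the 24 tested members and 0.33 over all 16545 genes. It was above the 90th percentile of all genes, 0.82, for 18 members (75.0%). The 8 members with the largest SD were Hoxd13 at 3.26, Hoxb6 at 2.70, Hoxb8 at 2.40, Hoxb7 at 2.36, Hoxd11 at 2.06, Hoxd4 at 2.02, Hoxd10 at 1.93 and Hoxb13 at 1.80. Only Hoxa4 at 0.28 and Hoxb9 at 0.29 were below the median of all genes. The biological coefficient of variation, which leaves out counting noise, had a median of 0.725 over the members and 0.245 over all genes. Without ceAF-1 and ceAF-4 the median SD of the members tested was 0.74 and that of all genes 0.29, and without ceAF-1 alone it was 1.00.

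Against this spread, the ceAF and DSS groups were compared gene by gene with edgeR's quasi-likelihood test, fitted to all 16545 genes with Benjamini-Hochberg adjustment. After adjustment 0 of the 24 tested Hox genes were DEGs at an adjusted p-value under 0.05, as were 0 of all genes tested (0%). DESeq2 also called 0 Hox genes, and 26 genes in all. At an unadjusted p-value under 0.05, 1 of the 24 Hox genes differed (4.17%), against 1146 of all genes (6.93%). By direction, 1 member was higher in the ceAF group, where 3.26% of all genes were, and 0 were lower, where 3.67% of all genes were. In DESeq2 1 member was under an unadjusted p-value of 0.05, the same gene. The groups did not overlap for 0 of the 24 members and for 1.24% of all genes.

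The member under 0.05 was Hoxd13. Its log2 fold change was 2.91 (standard error 1.23), with an unadjusted p = 0.0369 and an adjusted p = 0.703 in edgeR's quasi-likelihood test, and 2 of the 5 ceAF mice exceeded every DSS mouse. Without ceAF-2 and ceAF-3 in turn the log2 fold change was 2.25 and 2.36, with unadjusted p-values of 0.101 and 0.0923 in edgeR's quasi-likelihood test. Without DSS-1, DSS-2, DSS-3 and DSS-4 in turn it was 2.79, 3.05, 2.95 and 2.66, with unadjusted p-values of 0.0686, 0.0558, 0.0623 and 0.0748 in edgeR's test. The p-value stayed under 0.05 in that test without DSS-5 (0.0469), ceAF-1 (0.0253), ceAF-4 (0.00605) or ceAF-5 (0.0258). With the replicate number as a block, edgeR gave 1.27 with an unadjusted p = 0.325. On log2(FPKM + 1) limma gave a difference of 1.18 with an unadjusted p = 0.282, and on log2(FPKM + 0.1) one of 0.87 with an unadjusted p = 0.570. Without both ceAF-1 and ceAF-4 the edgeR estimate was 3.59, with an unadjusted p = 0.00182 and an adjusted p = 0.447. Both mice were set aside for their Hox levels, and ceAF-4 had 0 counts of Hoxd13. The p-values without ceAF-4 are therefore no separate measure of a difference between the groups. The adjusted p-value of Hoxd13 ranged from 0.417 to 1.00 over all alternatives.

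The other 23 tested members had unadjusted p-values of 0.108 or more in edgeR's quasi-likelihood test. Hoxd11 had a log2 fold change of 1.58 (standard error 0.90) and Hoxd10 one of 1.23 (standard error 0.83). In edgeR's quasi-likelihood test without ceAF-4 the unadjusted p-values of Hoxd11 and Hoxd10 were 0.0167 and 0.0285, and without both ceAF-1 and ceAF-4 they were 0.0133 and 0.0354. In edgeR's quasi-likelihood test without DSS-3 the unadjusted p-value of Hoxd10 was 0.0464. Without ceAF-1, Hoxa6 of cluster A was under an unadjusted 0.05 in that test and higher in the ceAF group, beside 11.2% of all genes. Hoxd10 and Hoxd11 were lowest in ceAF-4 and Hoxa6 in ceAF-1. The p-values without those mice are therefore no separate measure of a difference. The log2 fold change of Hoxb6 was 0.38 (standard error 1.28), and without ceAF-1 it was −1.64. For Hoxa13 it was −0.01 (standard error 0.59), and for Hoxb13 −0.04 (standard error 0.79). The smallest error of the 24 was that of Hoxb9, with a log2 fold change of 0.18 (standard error 0.17). Over the 24 members the median log2 fold change was 0.18, with 18 above and 6 below 0, beside a median of 0.01 over all genes and 8511 of 16545 above 0. Many members are neighbours in a cluster, so these counts are not independent. That median became −0.17 with the replicate number as a block, over the same 24 members. On log2(FPKM + 0.1) the median was −0.23, over 36 members, since no filter on low counts was set there. The direction of the median was therefore not stable.

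Genes known to mark the proximal or distal colon were read in the same mice. Osr2, an odd-skipped zinc finger factor taken here as a proximal colon gene, was at 0.348, 61.1, 56.2, 45.1 and 0.180 CPM in DSS-1 to DSS-5 and 266, 0.456, 26.4, 0.0597 and 0.165 CPM in ceAF-1 to ceAF-5. The 5 mice with the highest Osr2 were those with the highest Hoxb6, and the lowest of them was at 26.4 CPM against at most 0.456 CPM in the other 5. Aqp4, a water channel on the same list of 2 genes, was at 488, 347, 234, 682 and 801 CPM in DSS-1 to DSS-5 and 115, 601, 409.9, 672 and 862 CPM in ceAF-1 to ceAF-5. Aqp4 was lowest in ceAF-1, the mouse with the highest Osr2 and Hoxb6, so the 2 proximal colon genes went opposite ways there.

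Of the 6 distal colon genes, Prac1 was not analysed here and the other 5 were tested. Atp12a, the colonic proton-potassium pump, was at 49.3, 437, 177, 355 and 1624 CPM in DSS-1 to DSS-5 and 39.8, 1589, 1027, 11.7 and 802 CPM in ceAF-1 to ceAF-5. It was lowest in ceAF-4 and ceAF-1, the 2 mice with the lowest Hoxb13, and highest in DSS-5 and ceAF-2, the 2 with the highest Hoxb13. The sodium channel subunit gene Scnn1g was at 13.97, 3.55, 4.49, 7.62 and 25.2 CPM in DSS-1 to DSS-5 and 0.839, 21.6, 28.4, 2.98 and 10.01 CPM in ceAF-1 to ceAF-5. Its partner Scnn1b was at 24.9, 9.44, 8.02, 13.6 and 32.6 CPM in DSS-1 to DSS-5 and 3.66, 17.1, 17.3, 13.8 and 13.5 CPM in ceAF-1 to ceAF-5. Insl5, a hormone of colonic L cells, was at 13.7, 23.8, 28.7, 50.3 and 59.5 CPM in DSS-1 to DSS-5 and 1.91, 47.7, 33.1, 9.43 and 51.5 CPM in ceAF-1 to ceAF-5. All 3 were lowest in ceAF-1, where Hoxa13 and Hoxb13 were lowest too. Slc6a14, an amino acid transporter and the highest of the list by mean CPM, was at 659, 1198, 952, 1397 and 634 CPM in DSS-1 to DSS-5 and 1927, 752, 933, 1010 and 1007 CPM in ceAF-1 to ceAF-5. Slc6a14 was highest in ceAF-1, unlike the other 4 genes of the list, so the list did not move as a unit.

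**Figure D4:**
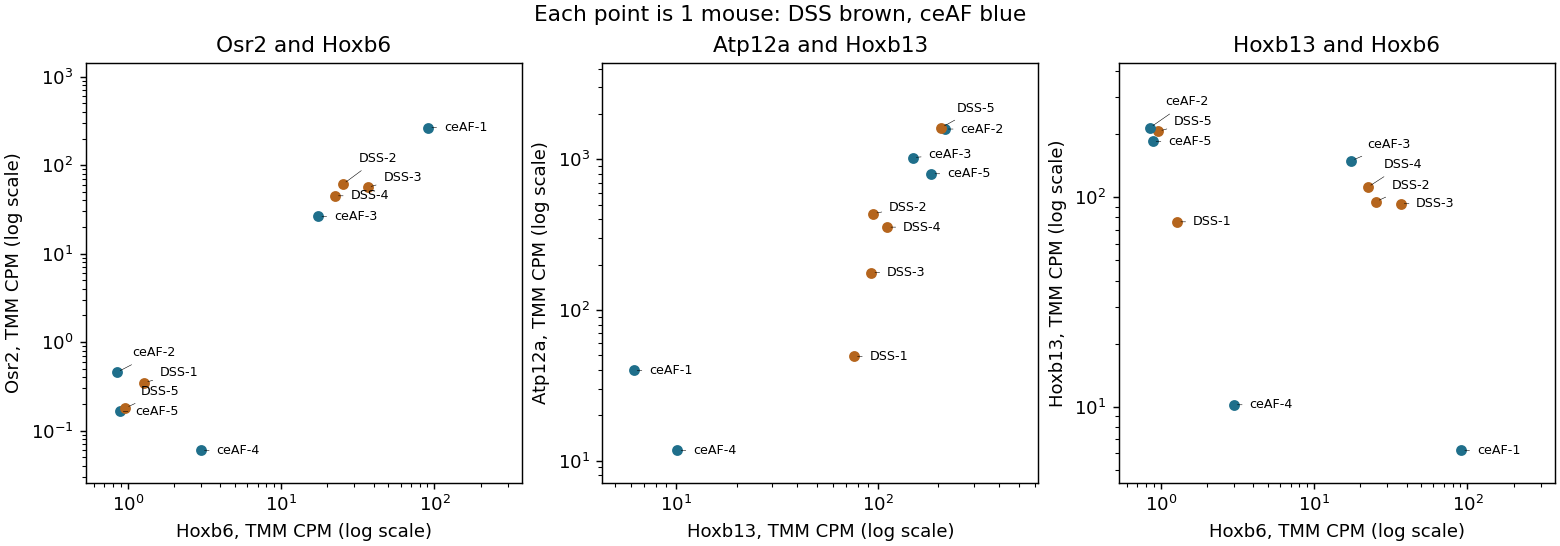
Levels of Osr2 against Hoxb6, Atp12a against Hoxb13, and Hoxb13 against Hoxb6 as TMM-normalized CPM on log axes; each labelled point is 1 mouse, with the DSS group in brown and the ceAF group in blue. Mice of both groups lie at both ends of the first panel, and ceAF-1 and ceAF-4 lie apart at the low end of Hoxb13, below 11 CPM.

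In sum over each list, the proximal colon genes were at 488, 408, 290.3, 727 and 802 CPM in DSS-1 to DSS-5 and 381, 602, 436, 672 and 862 CPM in ceAF-1 to ceAF-5, with Aqp4 the higher of the 2 in every mouse but ceAF-1. The distal colon genes summed to 761, 1671, 1170, 1824 and 2375 CPM in DSS-1 to DSS-5 and 1973, 2428, 2038, 1048 and 1884 CPM in ceAF-1 to ceAF-5. The proximal sum was highest in ceAF-5 and the distal sum in ceAF-2, mice with low Hoxb6 and high Hoxb13. Of the 7 regional genes tested, 0 had an unadjusted p-value under 0.05 between the ceAF and DSS groups in edgeR's test. Car1, a carbonic anhydrase on the list for colon epithelium, was at 1118, 4653, 7774, 4956 and 115 CPM in DSS-1 to DSS-5 and 11922, 814, 3344, 753 and 505 CPM in ceAF-1 to ceAF-5. Car1 too was highest in ceAF-1 and high in DSS-2, DSS-3, DSS-4 and ceAF-3, the mice with high Hoxb6. Of the other genes of that list only Epcam shared these 5 highest mice, narrowly, at 2167 CPM in DSS-2 against 2153 CPM in DSS-1. Muc2 and Slc26a3 were lowest in ceAF-1, at 3294 and 576 CPM. Car1 was singled out after its values were seen, and 1.92% of all genes tested had these 5 highest mice. Slc10a2, the bile acid transporter best known from the ileum, was at 12.6, 175, 105, 122 and 53.2 CPM in DSS-1 to DSS-5 and 436, 14.6, 82.1, 10.5 and 12.5 CPM in ceAF-1 to ceAF-5. It was highest in the same 5 mice, which did not hold for Fabp6, Alpi or Gata4, the other 3 small intestine genes tested. Lct and Apoa4 of that list had at most 19 counts in any mouse. The summed level of the 6 small intestine genes was 47.2, 304, 152, 219.7 and 59.3 CPM in DSS-1 to DSS-5 and 575, 35.3, 119, 75.9 and 29.4 CPM in ceAF-1 to ceAF-5, with Slc10a2 the highest by mean CPM. Whether the place along the colon from which tissue was taken differed between the mice was not tested, since the labels do not record it.

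Marker levels of other cell types are given beside the Hox values of the 2 mice that stood apart. The 6 fibroblast genes summed to 1072, 509, 509, 468 and 494 CPM in DSS-1 to DSS-5 and 161, 654, 625, 810.2 and 443 CPM in ceAF-1 to ceAF-5, with Col3a1 taking the most counts. All 6 were lowest in ceAF-1, as were all 4 endothelial genes. Endothelial genes summed to 96.0, 56.3, 55.6, 65.7 and 52.8 CPM in DSS-1 to DSS-5 and 24.2, 42.2, 53.7, 97.3 and 42.9 CPM in ceAF-1 to ceAF-5, with Pecam1 taking the most counts. In ceAF-4 Cdh5, Kdr, Vwf and, of the fibroblast genes, only Col1a1 were at their highest. Pecam1 and the other fibroblast genes, Pdgfra, Col1a2, Dcn, Lum and Col3a1, were highest in DSS-1. In ceAF-1 the fibroblast sum was 161 CPM against a lowest value of 443 CPM among the other 9 mice, and Hoxa13 was at 3.13 CPM against 41.4 CPM. Smooth muscle genes summed to 2368, 2105, 1487, 1278 and 2709 CPM in DSS-1 to DSS-5 and 1207, 2875, 1150, 1407 and 2282 CPM in ceAF-1 to ceAF-5, with Myh11 taking the most counts. Of the 6 smooth muscle genes 4 were lowest in ceAF-1, while the sum was lowest in ceAF-3. The part of these cell types in the Hox levels was not tested.

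The remaining marker lists were not compared with the Hox genes mouse by mouse. Genes of enteric neurons and glia summed to between 25.4 and 82.6 CPM, with Ret the highest by mean CPM and itself highest in ceAF-4. The sums ranged from 2.34 to 4.89 CPM for stratified squamous epithelium, from 5.28 to 30.4 CPM for adipose tissue and from 0.350 to 5.57 CPM for mesothelium. B-cell genes summed to between 6.71 CPM in ceAF-1 and 167 CPM in DSS-1. All 5 T-cell genes had an unadjusted p-value under 0.05 with lower levels after ceAF (median log2 fold change −1.23), and 0 of them passed adjustment in edgeR's test. The other 14 marker lists held 0 genes with an unadjusted p-value under 0.05.

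Genes that act with or on the Hox clusters were taken from 7 lists. Together they name 71 genes that the table holds. Tests were run on 60, and 4 (6.67%) had an unadjusted p-value under 0.05, all higher in the ceAF group, beside 6.93% of all genes. After adjustment 0 were DEGs in edgeR's test. Of the 8 genes tested for the TALE cofactors that bind DNA with Hox proteins, 0 were under 0.05. Among the ParaHox genes and cluster neighbours 4 were tested. Cdx2, which sets intestinal identity and acts on Hox genes in the embryo, was at 228, 233, 200.4, 283 and 66.1 CPM in DSS-1 to DSS-5 and 308, 108, 133, 194 and 83.3 CPM in ceAF-1 to ceAF-5. It was highest in ceAF-1 and lowest in DSS-5, ceAF-5 and ceAF-2, which were low in Hoxb6, but ceAF-4 and DSS-1, low in Hoxb6 as well, had Cdx2 above 190 CPM. Cdx1 ranged only from 179.6 to 288 CPM.

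Evx2, the homeobox gene beside Hoxd13, was the 1 gene of that list under 0.05. Its level was 0.637, 0.899, 0.180, 0.0640 and 0.660 CPM in DSS-1 to DSS-5 and 0.458, 6.25, 5.10, 0 and 0.825 CPM in ceAF-1 to ceAF-5. Evx2 was highest in ceAF-2 and ceAF-3, the mice with high Hoxd13, and its log2 fold change was 2.33 (standard error 1.03), with an unadjusted p = 0.0441 and an adjusted p = 0.711 in edgeR's test. Of 11 genes of Polycomb repressive complex 2, which keeps Hox genes silent, 2 were under 0.05, Ezh2 with a log2 fold change of 0.22 (standard error 0.09) and Mtf2 with 0.20 (standard error 0.08). Of 11 genes of Polycomb repressive complex 1, 0 were. Of 9 genes of the Trithorax group, which keep Hox genes active, 1 was, Kmt2b with 0.24 (standard error 0.08). Among 10 tested genes of retinoic acid and Fgf signaling 0 were, and Aldh1a1, which makes retinoic acid and was the highest of them by mean CPM, was at 31.8, 272, 196, 258 and 42.1 CPM in DSS-1 to DSS-5 and 825, 50.4, 178, 138 and 34.4 CPM in ceAF-1 to ceAF-5. Aldh1a1 was highest in the 5 mice with the highest Hoxb6, as were 1.92% of all genes tested. Of the other tested genes of that list only Rxra shared these 5 highest mice, narrowly, at 110 CPM in ceAF-3 against 108 CPM in DSS-1. Aldh1a3 was lowest in ceAF-1, at 4.43 CPM, and highest in ceAF-4, at 96.8 CPM.

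Antisense and long noncoding RNAs of the Hox clusters came to 10 genes. Of these, 7 were tested and 0 had an unadjusted p-value under 0.05. Hoxa11os, the antisense transcript of Hoxa11, was at 169, 89.2, 97.3, 135 and 161 CPM in DSS-1 to DSS-5 and 5.34, 149.5, 80.9, 153 and 189 CPM in ceAF-1 to ceAF-5. Hottip, at the 5′ end of cluster A beyond Hoxa13, was at 26.4, 14.1, 11.97, 23.3 and 32.7 CPM in DSS-1 to DSS-5 and 0.382, 26.1, 14.1, 18.4 and 36.7 CPM in ceAF-1 to ceAF-5. Both were low only in ceAF-1, like Hoxa13. Hoxb5os, whose span overlaps Hoxb5 and Hoxb6 on the other strand, was at 0.753, 4.15, 4.31, 3.14 and 1.68 CPM in DSS-1 to DSS-5 and 10.99, 1.24, 3.07, 0.955 and 0.715 CPM in ceAF-1 to ceAF-5, highest in the mice with high Hoxb6. By deposited position, 14 of the 39 members, 11 of them tested, overlap a gene on the opposite strand, and 15 overlap one on the same strand. Among the latter, Hoxa3 overlaps Hoxa4, Hoxa5 and Hoxa6, and Hoxc5 overlaps Hoxc6, Hoxc8, Hoxc9 and Hoxc10, so how reads were split between these members is uncertain too. No strand setting of the counting is given in the sources used here, so reads from the stretch that Hoxb6 shares with Hoxb5os, or Hoxa11 with Hoxa11os, cannot be assigned to a strand here.

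Promoter sequences are shown for 3 members with the same 5 highest mice as Hoxb6, namely Hoxb4, Hoxb8 and Hoxd4, and for Hoxd13, which had others. Hoxd8, the 1 other member of that set with a window, held neither motif named below and is not shown. RefSeq promoters on GRCm38.p6 were held for 22 members, as 24 windows, with none for Hoxb6 or Hoxb13, and each sequence is the 250 bases before the start of the gene, on the plus strand. They lie at chr11:96318017-96318266, chr11:96281655-96281904, chr2:74721728-74721977 and chr2:74667975-74668224, coordinates of GRCm38 and not of the table. Capitals mark the letters TTTATG or CATAAA, the core bound by CDX factors, and TGATNNAT or ATNNATCA, a motif of Hox and Pbx proteins bound together, where N is any base.
Hoxb4: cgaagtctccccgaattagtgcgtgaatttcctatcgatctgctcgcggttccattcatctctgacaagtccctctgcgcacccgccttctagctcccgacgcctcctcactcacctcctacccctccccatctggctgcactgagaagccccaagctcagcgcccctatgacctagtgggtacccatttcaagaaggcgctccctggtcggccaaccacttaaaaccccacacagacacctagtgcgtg
Hoxb8: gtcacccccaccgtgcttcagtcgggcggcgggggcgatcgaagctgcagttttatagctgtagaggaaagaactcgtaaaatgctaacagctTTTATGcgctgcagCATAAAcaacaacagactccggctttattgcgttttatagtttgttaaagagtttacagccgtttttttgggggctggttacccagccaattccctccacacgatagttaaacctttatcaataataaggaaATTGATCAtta
Hoxd4: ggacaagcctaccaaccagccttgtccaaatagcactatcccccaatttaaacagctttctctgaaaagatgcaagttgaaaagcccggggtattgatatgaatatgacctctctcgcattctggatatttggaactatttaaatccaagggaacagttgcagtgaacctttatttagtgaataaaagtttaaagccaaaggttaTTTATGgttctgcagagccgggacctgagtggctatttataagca
Hoxd13: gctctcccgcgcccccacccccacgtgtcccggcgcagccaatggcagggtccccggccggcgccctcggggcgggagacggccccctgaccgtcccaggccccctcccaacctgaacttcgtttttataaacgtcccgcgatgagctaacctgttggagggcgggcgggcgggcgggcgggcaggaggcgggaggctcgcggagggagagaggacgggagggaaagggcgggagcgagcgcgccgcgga

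In these letters, Hoxb8 held 2 matches to the CDX core and 1 to the Hox and Pbx motif, Hoxd4 held 1 match to the CDX core, and Hoxb4 and Hoxd13 held neither. Over all 24 Hox windows, 5 (20.8%) held the CDX core, beside 10.8% of 32851 mouse promoter windows of the same length. The Hox and Pbx motif was found in 4 of the Hox windows (16.7%) and in 7.68% of all windows. Hoxd13 held 31 CG dinucleotides, Hoxb4 14, Hoxb8 12 and Hoxd4 3, against a median of 12.5 over the Hox windows and 6 over all windows. A match is a run of letters and was not tested as a binding site.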

How the data were processed

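RNA of colon tissue from 5 mice of the DSS group and 5 of the ceAF group was sequenced, and groups and mouse numbers were taken from the sample labels. The submitters' processing notes name cutadapt 1.9.1 and HISAT2 2.2.1. The counting program, its strand setting, how reads shared by overlapping genes were assigned and the genome build are not given in the sources used here, and the protocol names no step that marks strand. The authors deposited whole-number counts per gene without normalization. The deposited FPKM of each gene equals its count divided by the exonic length in bases, as the authors deposited it, and by the library total, within 0.006 for 100% of values. Both therefore share 1 counting.

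Genes were kept by filterByExpr (minimum count 10) in edgeR 4.0.16 under R 4.3.3, scaled by TMM and compared with the two-sided quasi-likelihood test, with Benjamini-Hochberg adjustment over all genes kept. DESeq2 1.42.0 and limma 3.58.1 served as alternatives. CPM values use TMM-scaled library sizes, log2 CPM a prior count of 1. Limits for 0 counts are 3 counts and cover counting error only. The counts of every pair of libraries in a group differed by more than sampling noise, with a chi-square per gene of 14.6 or more over 20 pairs. That libraries are separate mice rests on the labels. The test was tried on simulated counts.

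Values of every mouse are given for the member with the highest mean FPKM of each cluster, the 8 tested members with the largest SD within groups, members under an unadjusted p of 0.05, and Hoxa13, Hoxb6, Hoxb13, Hoxd10 and Hoxd13, as well as for regional marker genes. Other genes given in every mouse were chosen after their values were seen. The members and lists were chosen with earlier results of these data known. Promoters came from RefSeq (GRCm38.p6). Gene positions are printed as deposited. Some single genes are not reported here.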

Additional observations from a re-analysis of the deposited data

Results flagged for a closer look

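Hoxa13 in ceAF-1, at 3.13 CPM, lay far below the other 4 mice of the ceAF group, which were between 80.6 and 97.7 CPM. On the log2 scale its gap to the nearest of them was 0.944 of the range of the group. The epithelial sodium channel gene Scnn1b in ceAF-1, at 3.66 CPM, was set apart in the same way, with a gap of 0.840 of the range. These were 2 of 38 groups of 5 values examined for the named Hox genes, the summed Hox FPKM, the weighted paralog number and the regional genes, and chance sets apart about 1 in 20 groups. Both concern the same mouse, whose low fibroblast and endothelial marker levels are given above, and the part of those in the values was not tested.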

How the results depend on the processing

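No setting called a Hox gene at an adjusted p-value under 0.05. Over all genes 26 were called by DESeq2, 1 by limma on log2(FPKM + 1), 7 on log2(FPKM + 0.1) and 0 in the edgeR fit of the report, and 0 to 3 when 1 mouse was left out. Hox genes under an unadjusted p of 0.05 numbered 1 in the report and 2 without a filter on low counts, of which 1, Hoxd1, with 4 counts in all, was lower in the ceAF group (5.33% of all genes tested were under 0.05). They numbered 0 by limma on log2(FPKM + 1) and 0 on log2(FPKM + 0.1), 3 without both ceAF-1 and ceAF-4 (Hoxd10, Hoxd11 and Hoxd13, all higher), an alternative chosen after seeing the data, and 0 to 3, all higher, when 1 mouse was left out. Of all genes tested, 9.68% were under 0.05 without both mice, 5.02% and 4.98% by limma, 4.84% by DESeq2, 4.19% with the replicate block and 4.26% to 11.2% when 1 mouse was left out. Genes of the regulator lists under 0.05 numbered 4, and 1 by limma on log2(FPKM + 1), 1 on log2(FPKM + 0.1), 5 by DESeq2, 7 without both mice and 2 to 10 when 1 mouse was left out, with the 10 in the setting without ceAF-1, where 11.2% of all genes were under 0.05.

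Mice of the 2 groups share replicate numbers, and no label says that these mark pairs. Deviations from the group mean correlated between mice of the same number at −0.249 to 0.286, and 1 of the 5 DSS mice correlated best with its own number. The best partner of DSS-2, DSS-3 and DSS-4 was ceAF-1, and with so few mice these correlations cannot exclude a pairing. With the replicate block 0 genes were called, 0 Hox genes and 2 genes of the regulator lists had an unadjusted p under 0.05, and the log2 fold changes of Hoxb6, Hoxb8 and Hoxd4 became −1.21, −1.18 and −0.45, those of Hoxb7, Hoxb13 and Hoxa13 −1.11, −0.93 and −0.26. Hoxd13 was at 1.27 with an unadjusted p of 0.325.

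The direction of genes with small fold changes turned with the setting. By limma on log2(FPKM + 1) and log2(FPKM + 0.1), Hoxb6 was at −0.38 and −0.55, Hoxb7 at −0.46 and −0.69, Hoxb8 at −0.34 and −0.54, Hoxa13 at −0.49 and −0.62, Hoxb13 at −0.97 and −1.09 and Hoxd4 at −0.0324 and −0.32. Hoxa13 was at 0.0077 with upper quartile scaling and 0.0030 with the filter of 1 CPM in 5 libraries. Without both ceAF-1 and ceAF-4, log2 fold changes were 0.29 for Hoxa13, −1.44 for Hoxb6, −1.68 for Hoxb7, −1.61 for Hoxb8, 0.65 for Hoxb13 and −0.81 for Hoxd4. When 1 mouse was left out they ranged from −0.14 to 0.30 for Hoxa13, −1.64 to 0.86 for Hoxb6, −1.79 to 0.30 for Hoxb7, −1.81 to 0.56 for Hoxb8, −0.40 to 0.28 for Hoxb13 and −0.99 to 0.62 for Hoxd4. Hoxd10, Hoxd11 and Hoxd13 were higher in the ceAF group under all 19 alternatives. Each alternative kept ceAF-2 or ceAF-3, where these genes were highest, so the constant direction is no separate measure of a difference. Hoxd13 was at 7.25, 0 and 4.95 CPM in ceAF-1, ceAF-4 and ceAF-5, none of them above the highest DSS mouse, at 10.5 CPM. The causes of the shifts in direction were not tested.

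The median SD within groups of the Hox genes was 1.45 and 0.740 without both mice. The summed Hox FPKM averaged over the mice of both groups moved from 226 to between 218 and 232, with the mean of the ceAF group alone at 269.8 FPKM ± 21.6 (SD, n = 3) without both mice. Counting limits the low members most, since all of cluster C, Hoxb1, Hoxb2, Hoxd1, Hoxd3 and Hoxd12 had at most 29 counts in a mouse.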
